A study of Mus musculus with 2 samples.

Results

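The receptors for the growth factors of a colony medium, and for the colony-stimulating factors that this medium leaves out, comprise 10 genes of the 55487 gene IDs counted. They are Kit, Epor, Il3ra, Csf2rb, Csf2rb2, Il6ra, Il6st, Csf1r, Csf2ra and Csf3r, chosen by name and found by Ensembl ID. The medium, MethoCult M3434, is a methylcellulose gel with stem cell factor (SCF), interleukin 3 (IL-3), interleukin 6 (IL-6) and erythropoietin (EPO), and the cells compared had grown in it for about 3 weeks. All 10 genes had at least 1 scaled CPM in a library (counts per 1000000 after library scaling) and so counted as tested.

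The first culture expressed EVI1+18, a product of aberrant splicing of the transcription factor EVI1, and the other expressed wild-type EVI1 (EVI1-WT). Both were lineage-negative marrow cells of C57BL/6 mice that carried a 3xHA-tagged form in the retroviral vector pMYs-IG, were sorted for GFP 3 days after infection, and were plated at 10000 cells. Both forms were overexpressed from the vector, and no culture without one was analysed here. Each culture gave 1 library, which leaves all comparisons without replicates, and every interval covers counting error only.

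Cytokine receptors pass an outside signal to enzymes inside the cell. KIT, the receptor for SCF, and CSF1R, the receptor for CSF1 and IL-34, are tyrosine kinases themselves. The others have no kinase of their own and work through bound JAK kinases. The EPO receptor works as a pair of identical chains, and the G-CSF receptor, encoded by Csf3r, likewise. IL-3, GM-CSF and interleukin 5 each have a private alpha chain (Il3ra, Csf2ra, Il5ra) that joins a common beta chain, Csf2rb. The mouse has a further beta chain, Csf2rb2, which serves IL-3 alone. IL-6 binds Il6ra, and signalling needs Il6st (gp130), which many cytokines of the IL-6 family share. In marrow, SCF acts on stem cells, early progenitors and mast cells, EPO on red-cell precursors, IL-3 on many myeloid cells and mast cells, G-CSF on neutrophils and CSF1 on macrophages.

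The promoter windows of the members furthest apart in each direction for which a window was at hand are shown because the receptors named here did not move as one. Windows were available for 8 of the 10 members, with none for Csf1r or Csf2rb. Each runs from 250 bases before to 50 bases after the annotated start, from RefSeq on GRCm38.p6, 5′ to 3′ on the gene's strand. Capitals mark matches on either strand to the GATA-type motifs AGATAA and TGATAA, the ETS-type motif GAGGAA, the RUNX-type motif TGTGGT, the Kruppel-type motif CCACACCC and the C/EBP-type motif TTGCNNAA. The GATA-type motifs differ in their first letter only.
Epor, chr9:21963527-21963826, minus strand: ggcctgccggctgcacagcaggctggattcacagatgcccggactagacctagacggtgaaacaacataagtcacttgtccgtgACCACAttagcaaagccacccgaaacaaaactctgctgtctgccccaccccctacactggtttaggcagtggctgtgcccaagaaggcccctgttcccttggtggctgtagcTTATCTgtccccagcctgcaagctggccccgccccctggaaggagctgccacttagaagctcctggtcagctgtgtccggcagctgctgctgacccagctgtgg
Csf2rb2, chr15:78305672-78305971, minus strand: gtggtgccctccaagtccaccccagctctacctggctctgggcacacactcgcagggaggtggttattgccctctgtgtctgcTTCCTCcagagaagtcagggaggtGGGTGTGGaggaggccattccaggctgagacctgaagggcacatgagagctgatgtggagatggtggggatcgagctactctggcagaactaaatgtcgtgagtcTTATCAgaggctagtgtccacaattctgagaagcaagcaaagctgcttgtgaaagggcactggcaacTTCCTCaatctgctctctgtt

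The Epor window held AGATAA, read on the opposite strand, with its first base 54 bases before the start, and TGTGGT at 166 bases before it. AGATAA occurs in 11.2% and TGTGGT in 16.8% of the 32851 promoter windows of the same length. The Csf2rb2 window held TGATAA 38 bases before the start (in 9.05% of all windows), CCACACCC 143 bases before it (3.56%) and GAGGAA both 167 bases before and 30 bases after it (28.3%). In the other windows, GAGGAA was found for Kit, Csf3r, Il6ra and Csf2ra, AGATAA for Il6ra, TTGCNNAA for Il3ra (10.8% of windows) and none of these letters for Il6st. A match describes the sequence and is not evidence of binding.

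The receptors went both ways between the libraries. A gene was called when the whole 95% counting interval of its scaled ratio lay above 2 or below 1/2. By this rule Epor, Il6st and Kit were higher in EVI1+18 (3 of 10, where 5.05% of the 13183 tested genes were called higher), and Csf2rb and Csf2rb2 were lower (2 of 10, where 5.10% of tested genes were called lower). The other 5 were within the rule, and in either direction 10.1% of tested genes were called. These shares of all tested genes are also the background for the counts called by this rule in the lists below. The median log2 ratio of the 10 receptors was 0.80 and that of all tested genes 0.01, and single receptors ranged from -2.16 to 3.98. The summed level of the 10 genes was 1501 scaled CPM in EVI1+18 and 4967 in EVI1-WT. The pair of beta chains held 84.1% of these receptor counts in EVI1+18 and 97.1% in EVI1-WT, and the summed level of the 8 other members was 238 scaled CPM in EVI1+18, against 146 in EVI1-WT.

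**Figure D1:**
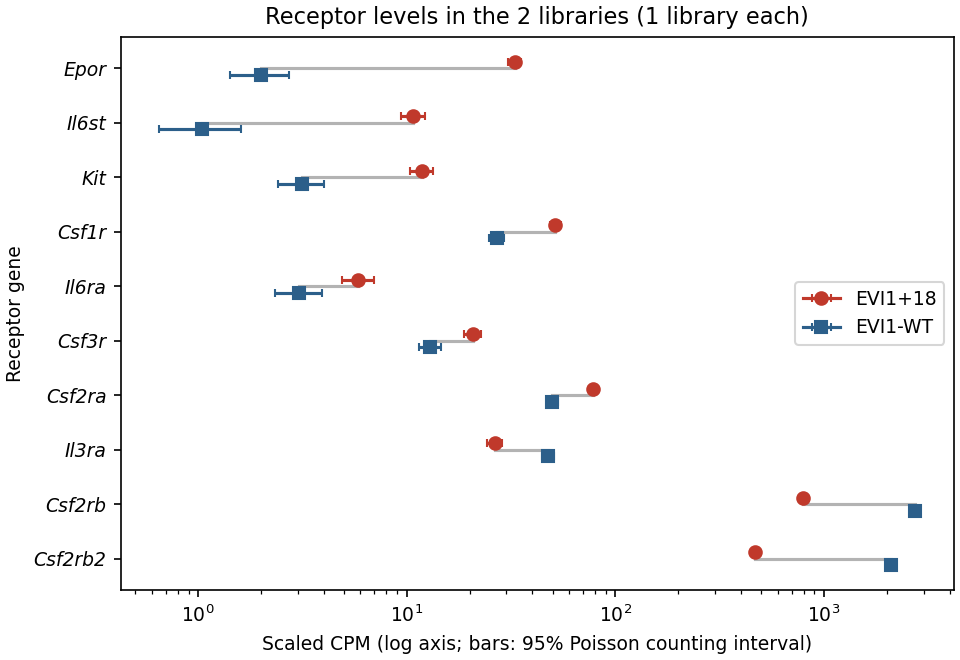
Scaled CPM (log axis) of each receptor gene in EVI1+18 (circles) and EVI1-WT (squares), 1 library each, with 95% Poisson counting intervals as bars. Epor, at 32.9 against 1.997 scaled CPM, is furthest apart, and the beta chains Csf2rb and Csf2rb2 have the highest levels in both libraries.

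Among the receptors for the ligands in the medium, the EPO receptor differed most. Epor (ENSMUSG00000006235; GRCm38 chromosome 9, minus strand, 21958897 to 21963506) reached 705 counts in EVI1+18, or 32.9 scaled CPM, and 40 counts in EVI1-WT, or 1.997 scaled CPM. It was 16.5-fold higher in EVI1+18, with a counting interval of 11.96 to 23.2. Its log2 ratio of 3.98 lay at percentile 99.2 of the tested genes. Erythroid markers moved with it: 10 of 11 tested were called higher and 0 lower, none was at 0, and their ratios ran from 2.80 to 47.7, a range that holds that of Epor. Their summed level was 12951 scaled CPM in EVI1+18 and 1409 in EVI1-WT. Their part in the Epor result was not tested. In bulk RNA, more cells of a type and more RNA per cell cannot be told apart, here and below.

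The SCF receptor was low in both cultures and higher in EVI1+18. Kit (ENSMUSG00000005672; chromosome 5, 75574916 to 75656722, plus strand) had 254 counts in EVI1+18, or 11.8 scaled CPM, and 63 in EVI1-WT, or 3.15 scaled CPM, which makes it 3.76-fold higher in EVI1+18 (2.85 to 5.04). Mast cells carry KIT as a defining marker, yet the mast cell and basophil list lay the other way. Of its 8 tested genes 6 were called lower, 1 higher, with summed levels of 431 scaled CPM in EVI1+18 and 4607 in EVI1-WT, and Tpsab1 was at 0 in both. The mast cell carboxypeptidase Cpa3, which early basophil and mast cell precursors also express, was at 196 scaled CPM in EVI1+18 and 2409 in EVI1-WT, and Mcpt8, a basophil protease gene, at 43.5 scaled CPM in EVI1+18 and 464 in EVI1-WT. Prss34, another basophil protease gene, was the one called higher, at 7.41 scaled CPM in EVI1+18 and 1.60 in EVI1-WT. Kit is usually high in stem and progenitor cells, and their list had 2 of 4 tested genes called higher and 0 lower. It summed to 47.1 scaled CPM in EVI1+18 and 7.99 in EVI1-WT, with Hlf and Hoxa9 at 0 in both. The called genes were Slamf1 (26.5 scaled CPM in EVI1+18, 0.499 in EVI1-WT) and Meis1 (9.18 in EVI1+18, 0.300 in EVI1-WT). Both counted as tested through EVI1+18 only and made up most of its sum. Cd34 (1.37-fold higher, 1.04 to 1.81) and Procr (1.95-fold higher, 1.40 to 2.75) were not called. The part of these cell types in the Kit result was not tested.

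The IL-6 receptor chains shifted in their proportions. Il6st (ENSMUSG00000021756; chromosome 13, 112464070 to 112510086, plus strand), the signalling chain, had 231 counts in EVI1+18 and 21 in EVI1-WT, or 10.8 and 1.049 scaled CPM. It was 10.3-fold higher in EVI1+18 (interval 6.56 to 16.9), on few counts in EVI1-WT. Il6ra (ENSMUSG00000027947; chromosome 3, 89864059 to 89913196, minus strand), the chain that binds IL-6, had 126 counts in EVI1+18 and 61 in EVI1-WT, or 5.87 and 3.05 scaled CPM, a 1.93-fold ratio whose interval of 1.41 to 2.66 crossed 2. Counts of Il6ra per count of Il6st were 0.545 in EVI1+18 (0.435 to 0.681) and 2.90 in EVI1-WT (1.74 to 5.02), a 5.33-fold lower balance in EVI1+18 with an interval of 3.02 to 9.62. This balance is taken within a library and does not depend on how the libraries were scaled. Per kilobase of exon, Il6ra stood at 0.701 times Il6st in EVI1+18 and 3.73 times in EVI1-WT.

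The IL-3 receptor lay the other way, through its beta chains more than its alpha chain. Il3ra (ENSMUSG00000068758; chromosome 14, 14346275 to 14356011, plus strand) had 566 counts in EVI1+18 and 950 in EVI1-WT, or 26.4 and 47.4 scaled CPM, and was 1.80-fold lower in EVI1+18. Its whole interval of 1.62 to 1.999 lay under 2-fold, so it was not called. Csf2rb (ENSMUSG00000071713; chromosome 15, 78325752 to 78353847, plus strand) had 17102 counts in EVI1+18, or 797 scaled CPM, and 54750 in EVI1-WT, or 2734 scaled CPM, a 3.43-fold lower level (3.37 to 3.49). Csf2rb2 (ENSMUSG00000071714; chromosome 15, 78282507 to 78305721, minus strand) gave 9997 and 41797 counts in EVI1+18 and EVI1-WT, or 466 and 2087 scaled CPM, a 4.48-fold lower level (4.38 to 4.58). Together the beta chains took 0.129% of all counts in EVI1+18 and 0.471% in EVI1-WT.

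**Figure D2:**
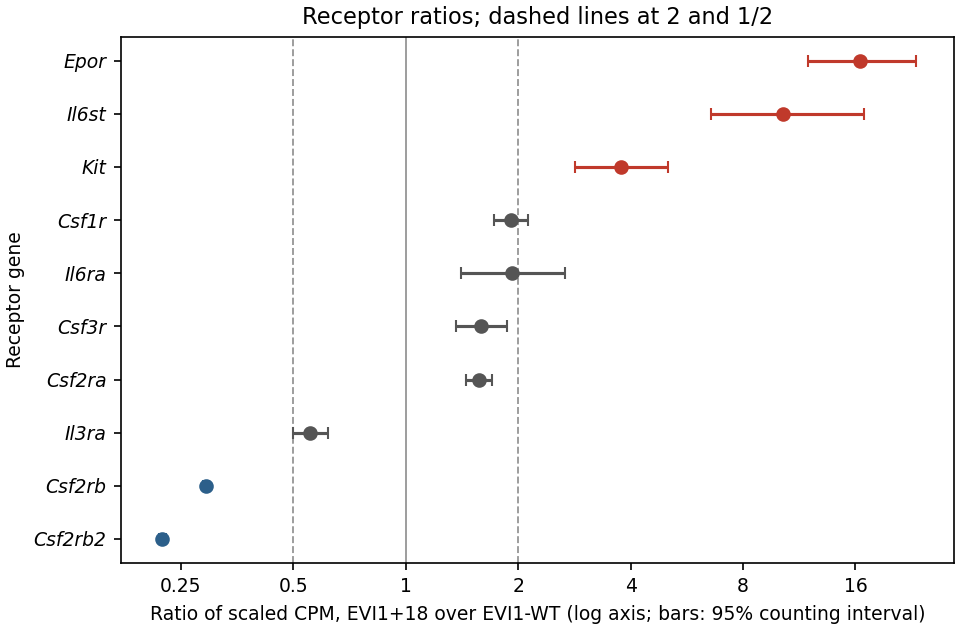
Ratio of scaled CPM, EVI1+18 over EVI1-WT, for each receptor gene (log axis), with 95% counting intervals as bars; dashed lines mark 2 and 1/2. Epor, Il6st and Kit lie wholly above 2, Csf2rb2 and Csf2rb wholly below 1/2, and the intervals of Csf1r and Il6ra cross 2.

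The beta-chain genes are neighbours, read away from each other with 20031 bases between them, and share sequence. Of the 50-base words in Csf2rb2 transcripts, 18.4% occur in Csf2rb, and 12.3% of those of Csf2rb occur in Csf2rb2. How reads from shared sequence were assigned is not given in the sources used here, so each single level is less certain than their sum. The sum was 27099 counts in EVI1+18 and 96547 in EVI1-WT, and was 3.82-fold lower in EVI1+18 (3.77 to 3.87). Csf2rb2 had 0.585 counts per count of Csf2rb in EVI1+18 (0.570 to 0.599) and 0.763 in EVI1-WT (0.754 to 0.773). The balance was 1.31-fold lower in EVI1+18, with an interval of 1.27 to 1.34. The next gene beyond Csf2rb2, Ncf4, which encodes a subunit of the phagocyte oxidase, was at 69.2 scaled CPM in EVI1+18 and 122 in EVI1-WT, 1.77-fold lower (1.66 to 1.89) and not called.

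Granulocyte and mast cell marker lists were lower beside the beta chains. The neutrophil list had 6 of 10 tested genes called lower and 0 higher, with summed levels of 1605 scaled CPM in EVI1+18 and 3505 in EVI1-WT, and no gene at 0. In the eosinophil list 3 of 4 were called lower and 1 higher, with summed levels of 171 and 849 scaled CPM in EVI1+18 and EVI1-WT, and no gene at 0. The mast cell and basophil values are given above. The part of these cells in the beta-chain result was not tested.

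The alpha chains of the IL-3 and GM-CSF receptors stood higher against their beta chains in EVI1+18. Il3ra had 0.0209 counts per beta-chain count in EVI1+18 and 0.00984 in EVI1-WT, a balance 2.12-fold higher in EVI1+18 (1.91 to 2.36), although Il3ra itself was lower there. The GM-CSF alpha chain Csf2ra had 0.0981 counts per count of Csf2rb, the beta chain it uses, in EVI1+18 and 0.0182 in EVI1-WT, 5.38-fold higher in EVI1+18 (4.96 to 5.83). The interleukin 5 alpha chain Il5ra, which is no member and which eosinophils and their precursors carry, had 31 counts in EVI1+18 and 116 in EVI1-WT. Its level was lower, like that of the beta chains, at 1.44 scaled CPM in EVI1+18 and 5.79 in EVI1-WT, and the ratio of its balances against Csf2rb, EVI1+18 over EVI1-WT, was 0.856 with an interval of 0.556 to 1.28, which allows a shift of either sign. Per kilobase, Csf2rb stood at 4.02 times Csf2ra in EVI1+18 and 21.6 times in EVI1-WT, and the beta chains together, both of which serve IL-3, at 23.4 times Il3ra in EVI1+18 and 51.0 times in EVI1-WT.

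The receptor genes Csf1r, Csf2ra and Csf3r, for colony-stimulating factors not in the medium, were all higher in EVI1+18, by less than the rule asks. Csf1r (ENSMUSG00000024621; chromosome 18, 61100598 to 61132149, plus strand) had 1105 counts in EVI1+18 and 540 in EVI1-WT, or 51.5 and 27.0 scaled CPM, a 1.91-fold ratio (1.72 to 2.12). Its exons overlap those of Hmgxb3, which had 824 counts in EVI1+18 and 856 in EVI1-WT, and reads of the overlap cannot be told apart without a known strand setting. Csf2ra (ENSMUSG00000059326; chromosome 19, 61223957 to 61228429, minus strand) gave 1677 and 998 counts in EVI1+18 and EVI1-WT, or 78.2 and 49.8 scaled CPM, a 1.57-fold ratio (1.45 to 1.70). Csf3r (ENSMUSG00000028859; chromosome 4, 126024550 to 126044440, plus strand) had 444 and 260 counts in EVI1+18 and EVI1-WT, or 20.7 and 13.0 scaled CPM, a 1.59-fold ratio (1.36 to 1.86). Of the 50-base words of Csf3r, 10.5% occur in other genes, and 8.84% in AC105061.2, which had 0 counts in both libraries.

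The balance between the CSF1 and G-CSF receptors differed little. Csf1r had 2.49 counts per count of Csf3r in EVI1+18 and 2.08 in EVI1-WT, a ratio of 1.20 with an interval of 0.992 to 1.45. Csf3r was higher in EVI1+18, whereas the neutrophil list had a median log2 ratio of -1.51. Ly6g, a marker of mature neutrophils, was at 1.63 scaled CPM in EVI1+18 and 27.5 in EVI1-WT, the furthest from 1 by ratio of its 10 tested genes. Mmp8, Elane, Camp and Mpo were not called, and Mpo, of early granulocytes, was at 585 scaled CPM in EVI1+18 and 539 in EVI1-WT. Beside Csf1r, the monocyte and macrophage list was split, with 4 of 8 tested genes called higher and 2 lower. C1qa was at 0 in both libraries. The list summed to 1805 scaled CPM in EVI1+18 and 1291 in EVI1-WT. Gpnmb alone held 1214 of this in EVI1+18 and 242 in EVI1-WT, so the direction of the sums rests on that gene. Against Kit, the other kinase among the members, Csf1r had 4.35 counts per count in EVI1+18 and 8.57 in EVI1-WT, and Epor had 2.78 counts per count of Kit in EVI1+18 and 0.635 in EVI1-WT. The Epor balance against Kit was 4.37-fold higher in EVI1+18 (2.81 to 6.84).

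The order of the receptors by level, taken per kilobase of exon, differed mainly in where Epor stood. In EVI1+18 the order was Csf2rb (109.5 scaled CPM per kilobase), Csf2rb2 (98.3), Csf2ra (27.2), Epor (16.5), Csf1r (8.92), Il3ra (8.89), Csf3r (5.73), Kit (1.33), Il6st (0.970) and Il6ra (0.680). In EVI1-WT it was Csf2rb2 (440.3 scaled CPM per kilobase), Csf2rb (376), Csf2ra (17.4), Il3ra (15.99), Csf1r (4.67), Csf3r (3.60), Epor (1.004), Kit (0.353), Il6ra (0.352) and Il6st (0.0945). Neighbours whose counting intervals overlapped were Csf1r and Il3ra in EVI1+18, and Csf2ra and Il3ra, and Kit and Il6ra, in EVI1-WT. With the longest transcript as the length, Csf2rb stood above Csf2rb2 in EVI1-WT (558 against 440.3 scaled CPM per kilobase), and Il3ra above Csf1r in EVI1+18 (11.4 against 11.0). Among the 13165 tested genes with an annotated length, Csf2rb2 ranked 511 in EVI1+18 and 132 in EVI1-WT on this scale, and Epor 3259 in EVI1+18 and 11101 in EVI1-WT. Kit ranked 10634 in EVI1+18 and 12279 in EVI1-WT.

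**Figure D3:**
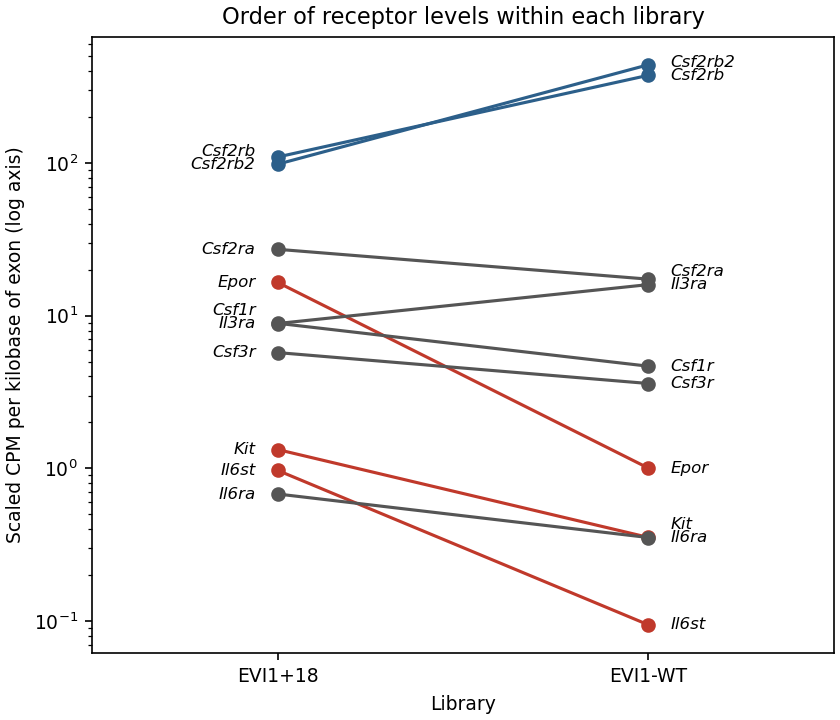
Scaled CPM per kilobase of exon (log axis) of the receptor genes in EVI1+18 (left) and EVI1-WT (right), 1 library each, joined by lines (red, called higher in EVI1+18; blue, called lower; grey, neither). The line of Epor crosses those of Il3ra, Csf1r and Csf3r. Those of Il6st and Il6ra, of Csf2rb and Csf2rb2, and of Csf1r and Il3ra also cross.

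Transcripts of the ligands were mostly at or near 0, with a pair of exceptions, both of them lower in EVI1+18. Csf1, the ligand of CSF1R, had 3442 counts in EVI1+18 and 13447 in EVI1-WT, or 160 and 671 scaled CPM, 4.19-fold lower (4.03 to 4.35), while its receptor stood 1.91-fold higher. Il6 had 1415 counts in EVI1+18 and 5922 in EVI1-WT, or 65.9 and 296 scaled CPM, 4.48-fold lower (4.23 to 4.75). Il3, Epo and Il5 had 0 counts in both libraries, which allows up to 0.140 scaled CPM in EVI1+18 and 0.150 in EVI1-WT. Kitl had 1 and 0 counts, Csf2 2 and 2, and Csf3 0 and 2, in EVI1+18 and EVI1-WT. Il34, the other ligand of CSF1R, had 14 counts in EVI1+18 and 0 in EVI1-WT, below the level for testing.

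Among other cytokine receptors, interleukin 2 and interleukin 5 receptor genes stood lower. Of 24 further class I and II receptors reported here, 18 were tested, 0 were called higher and 3 lower, around a median of -0.27 (log2 ratio). Of all tested genes, 5.10% were called lower. The interleukin 2 receptor chains Il2rb and Il2ra stood lower by 13.3-fold (6.20 to 34.1) and by 7.05-fold (4.82 to 10.6). Il5ra was 4.01-fold lower (2.68 to 6.17). Of the other class III receptor kinases, the family of KIT and CSF1R, Flt3 had 5 counts in each library and Pdgfra 0. Pdgfrb, which lies next to Csf1r, had 19 counts in EVI1+18 and 80 in EVI1-WT, 4.51-fold lower (2.71 to 7.88), opposite to Csf1r. The insulin and transferrin receptors, whose ligands the medium also supplies, were not called. Tfrc was at 511 scaled CPM in EVI1+18 and 338 in EVI1-WT, Igf1r at 310 in EVI1+18 and 343 in EVI1-WT, and Insr at 30.1 in EVI1+18 and 43.1 in EVI1-WT.

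With 1 library a group, a pattern is a single ratio, and for each called member the nearest tested genes by log2 ratio are named from the lists of other class I and II receptors, class III kinases and insulin and transferrin receptors, members left out. Il5ra (-1.93) and Pdgfrb (-2.06) were nearest to Csf2rb (-1.78) and to Csf2rb2 (-2.16). Il21r (0.76) and Tfrc (0.60) were nearest to Kit (1.88), to Il6st (3.25) and to Epor (3.98). They were not close, with distances from 1.12 (Kit and Il21r) to 3.38 (Epor and Tfrc). Il21r and Tfrc had the highest log2 ratios of the tested genes in these lists, where 0 genes were called higher. The neighbour Il31ra, described next, is on none of these lists. Of the 18 protein-coding neighbours on the chromosomes that were not members, 7 were tested, 0 were called higher and 1, Pdgfrb, lower. Beside Il6st lies Il31ra, which encodes a related receptor chain and was at 1.44 scaled CPM in EVI1+18 and 0.3495 in EVI1-WT.

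Lists of genes downstream of the receptors had medians near 0. Their calls, Jak2 and Socs1 lower and Dok1 higher, were about as frequent as among all tested genes, of which 10.1% were called. Of 18 genes of JAK-STAT signalling and its feedback, 2 were called lower and 0 higher, around a median of -0.02 (log2 ratio). Jak2, the kinase bound by the EPO receptor and the common beta chain, was at 138 scaled CPM in EVI1+18 and 389 in EVI1-WT, 2.82-fold lower (2.70 to 2.94). Socs1, a feedback inhibitor of JAK kinases, was at 25.4 scaled CPM in EVI1+18 and 79.4 in EVI1-WT, 3.13-fold lower (2.84 to 3.46). Stat5a was at 88.7 and 70.9 scaled CPM and Stat5b at 92.0 and 96.5 in EVI1+18 and EVI1-WT, neither called. Cish, a target and inhibitor of STAT5 signalling, was at 87.8 scaled CPM in EVI1+18 and 137 in EVI1-WT.

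Of 13 adaptors and regulators of KIT and RAS signalling, 1 was called higher and 0 lower, around a median of -0.16 (log2 ratio). It was the docking protein gene Dok1, at 54.2 scaled CPM in EVI1+18 and 23.4 in EVI1-WT, 2.32-fold higher (2.08 to 2.59). Neither Adam10, Adam17 nor Rhbdf2, which act in the shedding of membrane receptors and ligands, was called. Adam17 was nearest to the rule, at 91.5 scaled CPM in EVI1+18 and 183 in EVI1-WT.

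Of 10 transcription factors known to act on these receptor genes, 4 were called higher and 1 lower, around a median of -0.32 (log2 ratio). Among all tested genes, 5.05% were called higher and 5.10% lower. The red-cell factor Klf1 was 7.11-fold higher in EVI1+18 (6.06 to 8.38), at 61.4 scaled CPM there and 8.64 in EVI1-WT. Gfi1b, Gata1 and Tal1, factors of red cells and megakaryocytes, were 2.66-fold (2.41 to 2.95), 2.54-fold (2.38 to 2.71) and 2.29-fold higher (2.18 to 2.41). The granulocyte factor Cebpe was 4.03-fold lower (3.57 to 4.56). Spi1 (PU.1), known for its action on Csf1r, Csf2ra and Csf3r, was at 170 scaled CPM in EVI1+18 and 204 in EVI1-WT and was not called. Gata2 was at 376 scaled CPM in EVI1+18 and 769 in EVI1-WT, 2.04-fold lower. Its interval of 1.989 to 2.10 crossed 2, so it was not called.

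**Figure D4:**
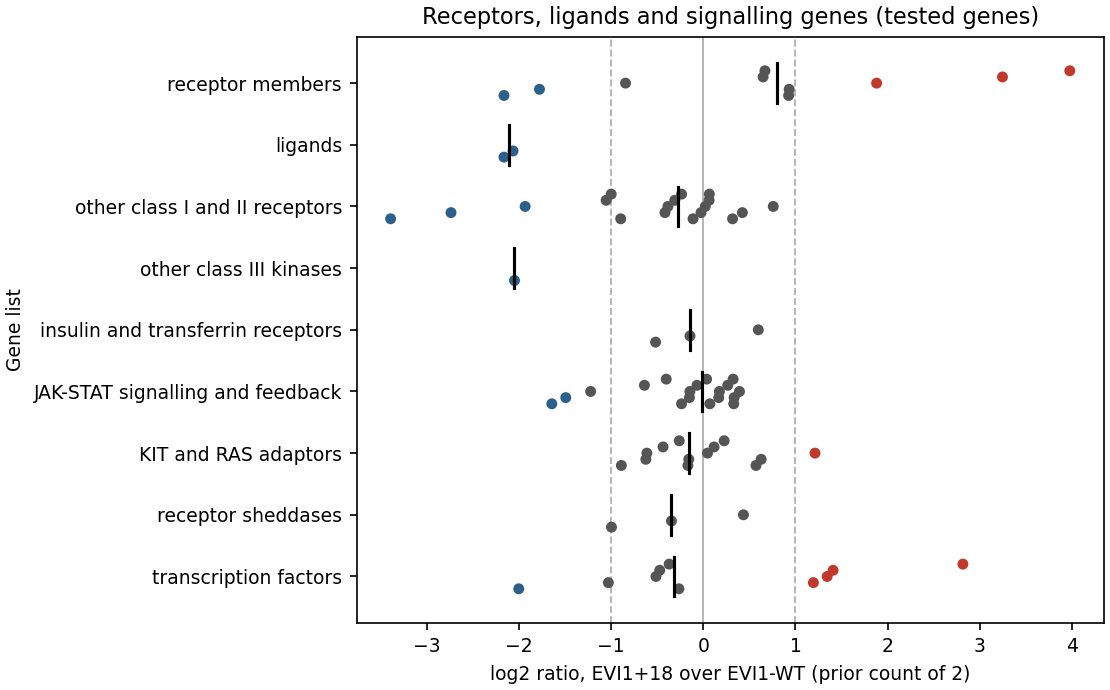
The log2 ratio of EVI1+18 over EVI1-WT for tested genes of the receptor members and of each related list (points; red, called higher; blue, called lower; grey, neither), with list medians as black bars and dashed lines at -1 and 1. The receptor members run from -2.16 to 3.98, and the JAK-STAT list has a median of -0.02.

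The libraries held 20981903 counts over 21037 genes in EVI1+18 and 20480447 counts over 21013 genes in EVI1-WT. Markers of lymphoid and stromal cells were near 0, with summed levels of 0.140 scaled CPM in EVI1+18 and 0.150 in EVI1-WT over 3 B cell genes (Ms4a1 and Pax5 at 0 in both), 0.419 in EVI1+18 and 0.3495 in EVI1-WT over 5 T and NK cell genes, and 0.466 in EVI1+18 and 0.749 in EVI1-WT over 6 genes of stroma and endothelium. Megakaryocyte markers were higher beside Epor, with 4 of 6 tested genes called higher and 0 lower, at a summed 1378 scaled CPM in EVI1+18 and 564 in EVI1-WT, with Tubb1 and Gp1bb at 0 in EVI1-WT. Their part in the Epor result was not tested. Both tested dendritic cell markers (2) were called higher, and Cd209a was at 0 in both libraries. The list summed to 22.3 scaled CPM in EVI1+18 and 6.29 in EVI1-WT. H2-Aa alone held 19.5 of this in EVI1+18 and 5.79 in EVI1-WT. The other tested marker, Clec9a, had 37 counts in EVI1+18 and 1 in EVI1-WT, and was tested through EVI1+18 only. The Y-linked gene Eif2s3y had 1 count in EVI1+18 and 2002 in EVI1-WT, whereas Ddx3y, also Y-linked, had 1626 counts in EVI1+18 and 1545 in EVI1-WT, and the X-linked Xist 4 in EVI1+18 and 8 in EVI1-WT. The ratio of EVI1+18 over EVI1-WT was 0.796 for Uty and 0.897 for Kdm5d.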

How the data were processed

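The authors deposited raw, whole-number read counts for each Ensembl gene, with 1 column per culture. HISAT2 2.2.1, SAMtools, featureCounts, Subread and edgeR are named with the build GRCm38, per the submitters' processing notes, without roles or settings. Strand setting, annotation release and the handling of multi-mapping reads were not given in the sources used here. Columns were assigned by name, and 0 value columns were left over. Symbols, exons and coordinates came from GENCODE M21 on GRCm38, which matched 55141 of 55487 IDs.

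Libraries were scaled with edgeR 4.0.16 (TMM, R 4.3.3). With 1 library a group, no test was run. Ratios are EVI1+18 over EVI1-WT, with 95% exact (Clopper-Pearson) intervals in scipy 1.17.1, and balances between genes have exact conditional intervals. These cover counting error only, since each group has 1 library. Reads also lack molecular identifiers, so the intervals count reads and not molecules. Log2 ratios carry a prior count of 2, and folds none. A count of 0 allows 3 counts per library. The rule was checked on simulated counts that held counting error only. Such a check cannot address variation between cultures. Gene lengths are the union of annotated exons.

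The members, lists and rules were chosen with earlier results of these data known. All members were named, then from the receptor and signalling lists the called genes, the ligands, JAK2 and STAT5 genes, and nearest receptors. Marker lists and chromosome neighbours are given mainly as counts and sums, and the genes named from them, with some others, were chosen after their values were seen. Alternatives covered scaling (DESeq2 1.42.0 size factors, total counts, upper quartile), filters, the prior count, the call rule, the length and summing the beta chains. A planned search of the receptor proteins was not run, and protein sequences were not used here. Some genes chosen for the lists were left out and are not reported here.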

Additional observations from a re-analysis of the deposited data

How the results depend on the processing

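Each of the 10 receptors kept its direction in every setting run, and its call under the 3 other scalings, other filters (none, or 5 scaled CPM) and point ratios. The prior count of 0.5 does not enter the call. Every receptor reached 5 scaled CPM in a library, so the other filters could not change a receptor's call. The number of receptors called stayed at 5 (3 higher, 2 lower) under those scalings, filters and point ratios. With intervals past 1.5-fold it was 7 (4 higher, 3 lower), which added Csf1r and Il3ra. The share of all tested genes called at 1.5-fold was not computed, so counts at 1.5-fold, here and below, have no background. The other scalings shifted every log2 ratio upwards by 0.0047 to 0.065. Over the related lists 14 genes were called, and 12 to 18 under the planned scalings, filters and point ratios. With intervals past 1.5-fold, an alternative added after seeing the data, 21 were called (5 higher, 16 lower), against 5 higher and 9 lower by the 2-fold rule. The number of balances whose interval left out 1 was 8 of 11 in each setting. The order per kilobase held for 44 of 45 receptor pairs in each library with the longest transcript. No paired analysis was possible because each group has 1 library. Depth limits Il6st, Epor, Kit and Il6ra most, with 21 to 63 counts in EVI1-WT, and the lack of replicate cultures limits every comparison.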
